A study of Mus musculus with 2 samples.

Results

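Mir144, Mir451a and Mir486 are miRNA genes known from red blood cells, and they were chosen by gene symbol for that reason, with earlier results of these data known. All 3 had a row among the 1973 miRNA genes counted by microRNA-seq, and all 3 passed a minimum of 10 counts per 1000000 sense counts (CPM). The tissue was heart of healthy B6NCrl mouse embryos at 13.5 days, with male and female embryos pooled and no treatment or engineered allele named. The design holds 1 group of 2 libraries, which the labels number as biological replicates 1 and 2 from separate biosamples under 1 donor record. The comparison open to these data is therefore between the libraries: how much red cell miRNA each heart sample carried, as a sign of its blood content. It has no replicate check of its own and no condition behind it. The libraries held 5569959 and 6039005 sense counts in replicates 1 and 2.

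Red blood cells of the embryo arise first in the yolk sac and then in the fetal liver, and a dissected heart carries the blood in its chambers and vessels. Mir144 and Mir451a are made from 1 primary transcript that the transcription factor GATA1 switches on as erythroblasts mature. Most miRNAs are cut from their hairpin by Dicer, but miR-451a is too short in its stem for that and is cut by Argonaute 2 instead. Mir486 lies in the gene of the red cell membrane protein ankyrin 1, and it is also known from heart and skeletal muscle. The tables hold miRNA genes only, so no globin or other red cell mRNA could be set beside these genes. In a bulk sample, fewer red cells and less of a miRNA per red cell cannot be told apart.

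The mature sequences of Mir144 and Mir451a are shown because the seed, bases 2 to 8, largely sets which mRNAs a miRNA can pair with. They are from RefSeq on GRCm38.p6, which has the same coordinates as mm10, are written 5′ to 3′, and carry the seed in capitals. Mir144 and Mir451a had an entry in the RefSeq table used, and Mir486 is named only.
miR-144-5p: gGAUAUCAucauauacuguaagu
miR-144-3p: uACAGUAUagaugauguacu
miR-451a: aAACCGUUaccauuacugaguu
No other of the 1738 mature sequences in that table had any of these 3 seeds, and each of the 3 sequences was found in 1 hairpin only among 1005. Mir144 and Mir451a thus share a transcript but no seed.

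The hairpins differ in where the mature miRNA sits. They are printed whole, with the mature miRNAs in capitals.
Mir144: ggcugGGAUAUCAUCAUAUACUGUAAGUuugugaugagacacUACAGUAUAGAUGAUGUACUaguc
Mir451a: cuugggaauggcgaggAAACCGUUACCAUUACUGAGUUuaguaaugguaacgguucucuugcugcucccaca
The Mir144 hairpin of 66 bases folded into 27 base pairs around a loop of 6 bases, with a predicted energy of -28.6 kcal/mol. It carries a mature miRNA on each arm, and neither reaches into the loop. The Mir451a hairpin of 72 bases folded into 30 base pairs around a loop of 4 bases, at -43.3 kcal/mol. Its mature miRNA covers positions 17 to 38 of the hairpin and takes in all 4 loop bases. The base pairs counted include some before the mature miRNA starts, so they do not measure the stem that Dicer would meet. The deposited counts are per gene, so the arms of Mir144 could not be counted apart.

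Mir144 (ENSMUSG00000065401.1) and Mir451a (ENSMUSG00000070065.1) lie on the plus strand of chromosome 11 (mm10), at 78073005 to 78073070 and at 78073170 to 78073241. A gap of 99 bases separates their hairpins, and GENCODE M21 has no gene other than miRNA genes over either. Mir451b is annotated on the minus strand over the same bases as Mir451a. Mir486 (ENSMUSG00000070084.3) lies on the plus strand of chromosome 8 at 23142555 to 23142682. There 15 transcripts of Ank1 span it on the same strand with 0 exons over it, so it is intronic. The long antisense gene Gm15816 (chromosome 8, 23138794 to 23149585) spans it on the minus strand, also with 0 exons over it. Mir3107, also known as mir-486b, lies on the minus strand within it, at bases 19 to 108 of the Mir486 hairpin.

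**Figure D1:**
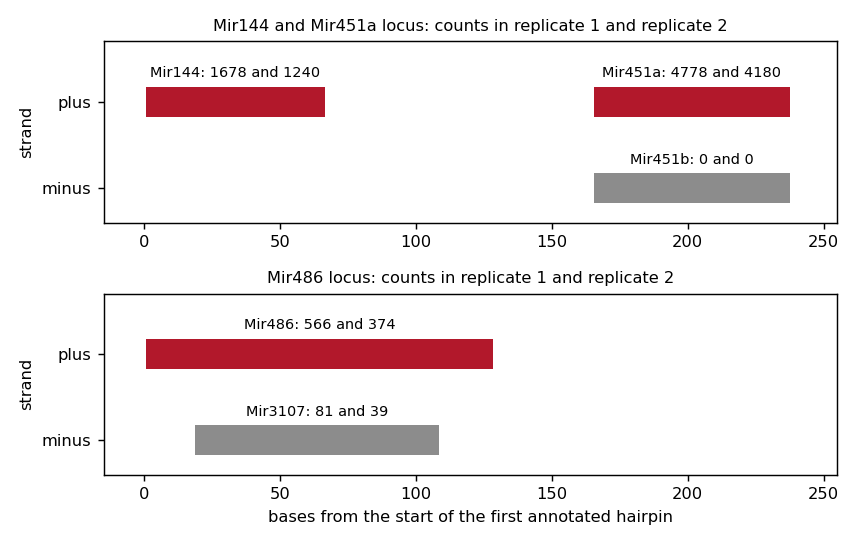
The annotated hairpins at both loci by strand (y axis) against the distance in bases from the start of Mir144 or Mir486 (x axis), each with its counts in replicate 1 and replicate 2. Members are red and the genes opposite to them grey; counts lie on both strands at Mir486 (566 and 374 sense, 81 and 39 opposite) and on the plus strand alone at Mir451a (4778 and 4180).

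Mir451a was the highest of the 3 genes in both libraries, Mir144 came next and Mir486 was the lowest. Mir451a, whose product is among the most abundant miRNAs of mature red cells, had 4778 sense counts in replicate 1, or 858 CPM (exact 95% interval 834 to 882). It had 4180 counts in replicate 2, or 692 CPM (671 to 713). Its mean was 775 ± 117 CPM (SD, n = 2), which placed it at rank 88 of 1973 genes. It stood at rank 87 in replicate 1 and rank 92 in replicate 2. Its intervals in the libraries did not overlap, and replicate 1 was the higher.

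Mir144, its partner on the primary transcript, had 1678 counts in replicate 1, or 301 CPM (287 to 316). It had 1240 counts in replicate 2, or 205 CPM (194 to 217). The mean was 253 ± 67.8 CPM at rank 136, ranked 126 in replicate 1 and 141 in replicate 2. Replicate 1 was again higher, with no overlap of the intervals. By mean level Mir144 could not be ordered against Mir328 (254 ± 20.6 CPM) and Mir200b (253 ± 28.9 CPM), the genes just above and below it, since its own spread was larger than the gaps.

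Mir486 had 566 sense counts in replicate 1, or 102 CPM (93.4 to 110). It had 374 in replicate 2, or 61.9 CPM (55.8 to 68.5). The mean was 81.8 ± 28.1 CPM at rank 191, with ranks of 184 in replicate 1 and 203 in replicate 2. Its libraries did not overlap either. These intervals take every read as independent, which PCR copies are not, and so reflect counting error alone.

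**Figure D2:**
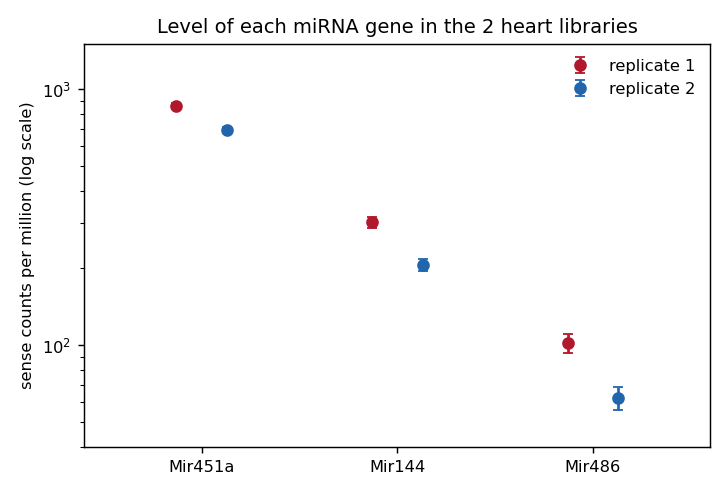
Sense CPM on a log scale (y axis) of each gene (x axis) in replicate 1 (red, left) and replicate 2 (blue, right), with exact 95% intervals for counting error. All 3 genes were higher in replicate 1, and the order Mir451a, Mir144, Mir486 was the same in both libraries.

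Together the 3 genes took 7022 counts in replicate 1, or 0.126% of the sense counts (exact 95% interval 0.123 to 0.129). They took 5794 counts in replicate 2, or 0.0959% (0.0935 to 0.0984). The mean share was 0.111% ± 0.0213 (SD, n = 2). The summed counts were 1.31-fold higher in replicate 1 (exact 95% interval of the ratio 1.27 to 1.36).

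The 3 genes did not differ between the libraries by the same factor. Mir486 was 1.64-fold higher in replicate 1 than in replicate 2 (exact 95% interval 1.44 to 1.87). Mir144 was 1.47-fold higher (1.36 to 1.58) and Mir451a 1.24-fold higher (1.19 to 1.29). The interval of Mir451a lay below those of the other two, which overlapped each other. The most abundant gene thus had the smallest ratio, while Mir486 and Mir144 could not be ordered.

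On the log2 scale, with a pseudocount of 1 CPM, the ratios of replicate 1 over replicate 2 were 0.71 for Mir486, 0.55 for Mir144 and 0.31 for Mir451a. Across the 288 genes that averaged at least 10 CPM the median was 0.10, and 189 genes (65.6%) had a ratio above 0. A ratio above 0 is therefore the more common direction on total sense counts. Relative to that median the members stood at 0.61, 0.45 and 0.21 for Mir486, Mir144 and Mir451a. By size of the ratio, Mir486 was 8th, Mir144 15th and Mir451a 54th from the top. The central 90% of genes ran from -0.31 to 0.55, so Mir486 lay outside that range, Mir144 at its upper bound and Mir451a inside it.

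A difference of at least 1.5-fold was called at 1 of the 3 genes, Mir486. Of all genes tested, 17 of 288 (5.90%) passed that fold in either direction and 14 (4.86%) were higher in replicate 1. With TMM scaling, which lowers every ratio by about the median, the split was 8 higher and 8 lower in place of 14 and 3, and Mir486 was still past the fold at a log2 ratio of 0.60. DESeq2 size factors came to 1 in both libraries, so that setting compares unscaled counts. It also gave 8 and 8, with Mir486 at 0.59, barely past the fold. Mir6236 and Mir615, the genes next to Mir486 by mean level, had ratios of 0.77 and 0.79, both above its own.

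**Figure D3:**
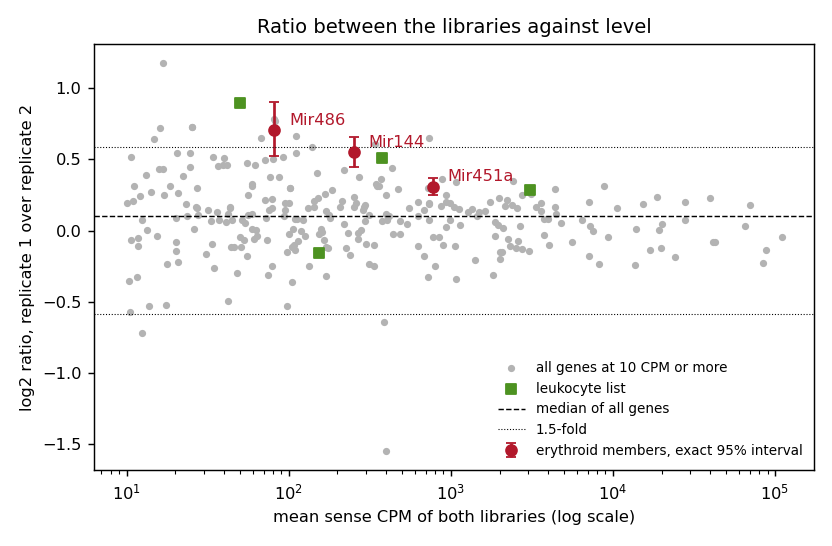
The log2 ratio of replicate 1 over replicate 2 (y axis) against mean sense CPM on a log scale (x axis) for the 288 genes at 10 CPM or more (grey), the leukocyte list (green squares) and the 3 red cell genes (red, with exact 95% intervals of the count ratio). The dashed line is the median of all genes at 0.10 and the dotted lines are 1.5-fold; Mir486 alone of the red genes lies above the upper dotted line.

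Ratios between members within a library do not depend on any scaling. Mir451a had 2.85 times the counts of Mir144 in replicate 1 (exact 95% interval 2.69 to 3.01) and 3.37 times in replicate 2 (3.16 to 3.59). The log2 ratio of the pair was 1.63 ± 0.172 (SD, n = 2). Although both come from 1 transcript, their proportion differed between the libraries by more than counting error, with relatively more Mir144 in replicate 1. There were 60 pairs of neighbouring miRNA genes on 1 strand, at most 1000 bases apart and both averaging at least 10 CPM. A gene could be in more than 1 pair, and the difference in ratio between partners had a median of 0.19. For Mir144 and Mir451a it was 0.24, and 24 of the 60 pairs had a larger one.

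The levels of Mir451a and Mir144 differed by 1.61 on the log2 scale of mean CPM, against a median of 2.82 over the same 60 pairs. Mir451a had 8.44 times the counts of Mir486 in replicate 1 (7.74 to 9.23) and 11.2 times in replicate 2 (10.1 to 12.5), a log2 ratio of 3.28 ± 0.286. Mir144 had 2.96 times the counts of Mir486 in replicate 1 (2.69 to 3.27) and 3.32 times in replicate 2 (2.95 to 3.73), a log2 ratio of 1.65 ± 0.114. The intervals of the last ratio overlapped between the libraries, while those of both ratios with Mir451a did not. All of these are ratios of read counts. How well each small RNA was captured in the library, and how many of its reads fit several places in the genome, were not tested.

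The strand columns separated the loci. At Mir144 and Mir451a no read was counted on the opposite strand in either library. At Mir451a that allows a share of up to 0.0628% in replicate 1 and 0.0718% in replicate 2, taking 3 counts as the limit of a count of 0. This is so although a run of 16 bases of miR-451a, positions 2 to 17, also stands in the Mir451b hairpin. At Mir486, 81 of 647 reads in replicate 1 lay on the opposite strand, that of Mir3107 and Gm15816, which is 12.5% (10.1 to 15.3). In replicate 2 it was 39 of 413 reads, or 9.44% (6.80 to 12.7).

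Reads of that strand, whose gene of origin the tables do not give, thus stood at 14.5 CPM (replicate 1) and 6.46 CPM (replicate 2), a mean of 10.5 ± 5.72 CPM. They were 2.25-fold higher in replicate 1 (exact 95% interval 1.52 to 3.39), the same direction as Mir486 itself, and the intervals of both ratios overlapped. Both strands of Mir486 summed to 116 CPM (replicate 1) and 68.4 CPM (replicate 2). Mir486 and Mir3107 are known to give mature miRNAs that are at least closely alike, and their sequences could not be compared here. Reads that fit both strands equally could sit in the multi-mapping class, which held 26.9% of all reads in replicate 1 and 28.0% in replicate 2. Its part in the level of Mir486 was not tested. Counts on both strands of Mir486 may therefore be undercounts. The level, rank and opposite share given for Mir486 are of counted reads only.

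Markers of other cells were set beside these genes in both libraries. The counts in each list stand beside all 288 genes tested, of which 65.6% had a ratio above 0 and 5.90% passed 1.5-fold. Leukocyte miRNAs, known from the other cells of blood, had rows for 6 of 7 symbols, and the cells their reads came from were not tested. Of the 4 at 10 CPM or more, 3 were higher in replicate 1 and 1 passed 1.5-fold, and their median log2 ratio was 0.39. Whether counts over 4 genes differ from the shares of all genes was not tested. Mir223, of the myeloid lineage, had 441 CPM in replicate 1 and 310 CPM in replicate 2. Mir146, a regulator of innate immune signalling, had 65.4 CPM in replicate 1 and 34.6 CPM in replicate 2, the largest ratio of the list at 0.90. Mir155, induced in activated lymphocytes and macrophages, went the other way, at 146 CPM (replicate 1) and 163 CPM (replicate 2).

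The leukocyte sum was 0.403% of sense counts in replicate 1 and 0.328% in replicate 2, 1.23-fold higher in replicate 1 (exact 95% interval 1.20 to 1.25). Most of it was Mir342 at 3366 and 2768 CPM in replicates 1 and 2, a miRNA that many other tissues express too. Mir142, which marks nearly all blood cells, has no row of its own. The reads opposite to the row of Mir142b, on the strand of Mir142, were looked up after the data were seen and came to 1555 CPM (replicate 1) and 1129 CPM (replicate 2), a log2 ratio of 0.46. The members' sum against the leukocyte sum was 0.313 in replicate 1 and 0.292 in replicate 2, a log2 ratio of -1.73 ± 0.0703. The red cell and leukocyte sums were thus both higher in replicate 1. Which differed by the larger factor rests on Mir342, which made up 83.6% (replicate 1) and 84.3% (replicate 2) of the leukocyte counts. The red cell sum was 1.31-fold higher (1.27 to 1.36). Without Mir342 the leukocyte sum was 1.28-fold higher (1.22 to 1.35), and without Mir342 but with the Mir142 reads 1.35-fold (1.31 to 1.38), so the sums could not be ordered by factor. Without Mir342 the members' sum was 1.90 times the leukocyte sum in replicate 1 and 1.86 times in replicate 2.

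The miRNAs of heart muscle had lower ratios, with a median of -0.08 over 3 genes at 10 CPM or more and 0 of 3 past 1.5-fold. Mir208b, hosted by the myosin gene Myh7, had 41742 CPM in replicate 1 and 44185 CPM in replicate 2. Mir208a, hosted by Myh6, had 7349 and 7178 CPM and Mir499, hosted by Myh7b, 1627 and 2024 CPM in replicates 1 and 2. Mir208a, at a ratio of 0.03, turned negative under TMM and DESeq2 scaling. Mir486, which heart muscle is known to express as well, stood at 0.71, and the cells its reads came from were not tested. The cardiomyocyte sum was 40.2 times the red cell sum in replicate 1 and 55.7 times in replicate 2. As a log2 ratio of red cell over cardiomyocyte counts this was -5.56 ± 0.331. Of the defining cardiac rows Mir133a-2 was at 0 in both libraries, where 3 counts would be 0.539 CPM (replicate 1) and 0.497 CPM (replicate 2). Mir1a-1 (4.07 ± 0.598 CPM) and Mir133a-1 (2.89 ± 1.30 CPM) lay under the minimum. Mir1a-2 has no row, and the reads on its strand opposite to the row of Mir1b came to 17.6 CPM (replicate 1) and 16.2 CPM (replicate 2). The copies of Mir1a, and those of Mir133a, are known to give the same mature miRNA, whose reads could sit in the multi-mapping class. These rows may therefore be undercounts, and the sum is of counted rows only.

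Smooth muscle genes had a median of -0.12, and their sum was 67.5 times the red cell sum in replicate 1 and 97.5 times in replicate 2 (log2 of red cell over smooth muscle -6.34 ± 0.375). Mir143 had 84268 CPM in replicate 1 and 92601 CPM in replicate 2, and Mir145a 868 and 931 CPM. Mir126a, the endothelial miRNA in an intron of Egfl7, had 74876 CPM in replicate 1 and 66025 CPM in replicate 2. Its log2 ratio was 0.18, and the red cell sum against it -6.00 ± 0.150. In its ratio between the libraries Mir126a thus lay between the cardiomyocyte and red cell medians.

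Fetal liver makes red cells at this age, so its miRNA was set beside them. Mir122, the main miRNA of hepatocytes, had 201 CPM in replicate 1 and 591 CPM in replicate 2, a log2 ratio of -1.55. This is opposite in direction to all 3 red cell genes. The red cell sum was 6.26 times the Mir122 counts in replicate 1 and 1.62 times in replicate 2 (log2 1.67 ± 1.38), the widest spread among the lists compared. Endoderm miRNAs had a median of -0.23 over 5 genes. Mir375 had 301 CPM in replicate 1 and 471 CPM in replicate 2 and was the 1 gene of that list past 1.5-fold. Mir215 had 204 and 167 CPM, and Mir192 58.2 and 53.8 CPM.

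Epithelial miRNAs, which are not of blood, had ratios above 0 at 7 of 7 genes, beside 65.6% of all genes. Under TMM or DESeq2 scaling 6 of the 7 stayed above 0 and Mir141 turned negative. The median of the list was 0.31 on total sense counts. Mir205 passed 1.5-fold at a ratio of 0.59, but not under either of those scalings. Mir429 had 994 CPM in replicate 1 and 773 CPM in replicate 2, Mir200c 497 and 366 CPM, and Mir203 401 and 323 CPM. The red cell sum was 1.31-fold higher in replicate 1, and the epithelial sum 1.28-fold. Of the neural list Mir137 alone reached 10 CPM; it had 83.1 CPM (replicate 1) and 52.7 CPM (replicate 2). Its log2 ratio of 0.65 was past 1.5-fold, though not under TMM (0.55) or DESeq2 scaling (0.53), and lay above those of Mir144 and Mir451a. Mir9-3 averaged 2.00 ± 0.723 CPM, and the rows Mir124a-1, Mir124a-2, Mir124a-3 and Mir9-2 were at 0 in both libraries. The copies of each of these are also known to share a mature miRNA, so a row at 0 does not show that the miRNA was absent. Of the skeletal muscle list Mir206 had 79.5 CPM in replicate 1 and 115.6 CPM in replicate 2, a ratio of -0.53 that passed 1.5-fold under TMM (-0.64) and DESeq2 scaling (-0.65), and Mir133b averaged 3.29 ± 0.675 CPM. Ratios above the median of all genes thus also occurred in lists that are not of blood.

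**Figure D4:**
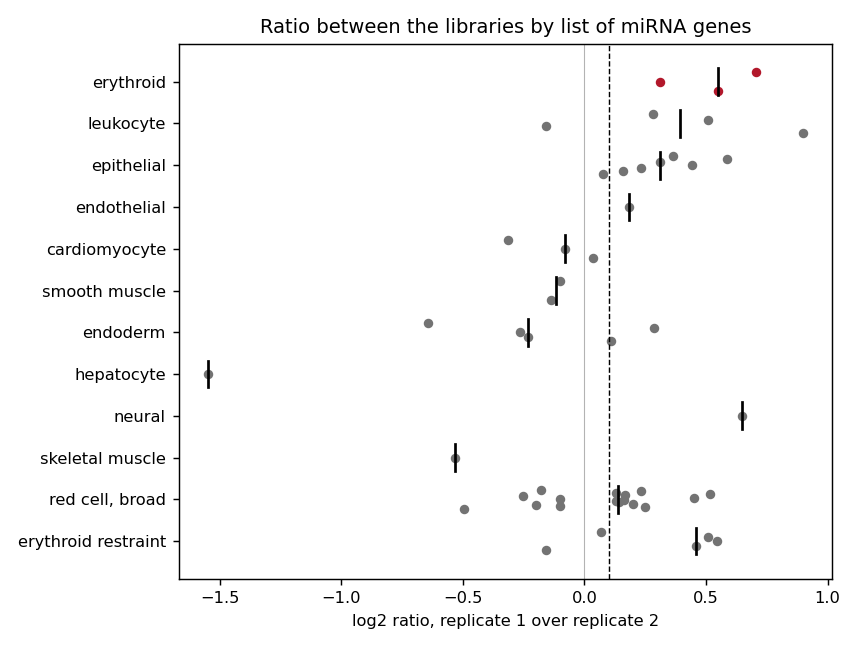
The log2 ratio of replicate 1 over replicate 2 (x axis) of each gene at 10 CPM or more, by list (y axis), with the list's median as a black bar and the median of all 288 genes at 0.10 as the dashed line. The red cell genes (red) lie at 0.31, 0.55 and 0.71 and the cardiomyocyte genes between -0.32 and 0.03; the hepatocyte, neural and skeletal muscle lists hold 1 gene each, Mir122 at -1.55, Mir137 at 0.65 and Mir206 at -0.53.

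Other miRNAs known from red cells, which many other tissues also express, had ratios near those of all genes. Of 18 such symbols 17 had a row and 16 reached 10 CPM. None of the 16 passed 1.5-fold (1 did under TMM or DESeq2 scaling, lower in replicate 1), 10 had a ratio above 0, and the median was 0.14 against 0.10 for all genes. Mir93 had 6668 CPM in replicate 1 and 7548 CPM in replicate 2, Mir106b 3919 and 4203 CPM, and Mir107 1884 and 2161 CPM. Mir191 has no row, and the reads on its strand came to 2170 CPM (replicate 1) and 2087 CPM (replicate 2). Mir16-1, abundant in red cells and in most other tissues, had 1342 CPM in replicate 1 and 1226 CPM in replicate 2. Their sum of 2.22% ± 0.0459 of all sense counts was 17.3 times the members' sum in replicate 1 and 23.5 times in replicate 2. It is of counted rows only, and rows whose copies share a mature miRNA may be undercounts here too.

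A further list held miRNAs known to restrain erythroid growth or to fall as red cells mature. It had 5 genes at 10 CPM or more, none past 1.5-fold, with a median of 0.46. Mir223 and Mir155 of the leukocyte list are among them. Mir24-2 had 304 CPM in replicate 1 and 290 CPM in replicate 2, a ratio of 0.07 that turned negative under TMM and DESeq2 scaling. Mir24-1 has no row; the reads on its strand, opposite to the row of Mir3074-1, came to 42.2 CPM (replicate 1) and 25.2 CPM (replicate 2), a ratio of 0.72 that is past 1.5-fold. Mir222, which targets the stem cell factor receptor Kit, had 29.4 and 19.9 CPM. The part that blood volume, dissection, other cells or multi-mapping reads had in any of these ratios was not tested.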

How the data were processed

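MicroRNA-seq libraries of RNA below 30 nucleotides were made from total RNA of 2 heart samples, per the labels. The deposited counts are whole-number reads per miRNA gene, which the authors took from an alignment to mm10 with GENCODE M4 (build and release per the deposited notes). Which aligner, counter and trimming were used is not given in the sources used here. The tables have 1973 gene rows and 4 read classes each, with columns for both strands, the gene's strand (sense) and the opposite strand. The tables held 12136246 and 12282789 reads in replicates 1 and 2, of which 45.9% and 49.2% were sense counts. Unmapped (21.2% and 17.2%), multi-mapping (26.9% and 28.0%) and unassigned reads (3.60% and 2.92%) stayed out of library sizes.

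Symbols came from GENCODE M21 by gene identifier, and 1894 of 1973 matched. CPM used total sense counts. Ratios of counts carry exact 95% Clopper-Pearson intervals. A gene was called at 1.5-fold with a pseudocount of 1 CPM among genes averaging at least 10 CPM. With 1 group no replicated test could be made. The call step and intervals were tested on simulated counts with counting error only. PCR copies and spread between samples were left out, so that test does not cover them. An exact binomial test with Benjamini-Hochberg adjustment over 288 genes, edgeR 4.0.16 TMM factors and DESeq2 1.42.0 size factors served as alternatives. The DESeq2 factors were 1 in both libraries, so values given under DESeq2 scaling compare unscaled counts. Hairpins were folded with RNAfold 2.7.2. Members and lists were chosen with earlier results of these data known. Named genes were the members, the 3 highest of each list, and the genes closest to each member in level or ratio. Mir146, Mir205, Mir16-1, Mir1a-1, Mir133a-1, Mir141, Mir101a, the rows at 0 and the reads opposite to a row (Mir142, Mir1a-2, Mir24-1, Mir191) fall outside that rule and were picked after values were seen, as were the 60 neighbouring pairs. Software was Python 3.11.15 with scipy 1.17.1, and R 4.3.3.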

Additional observations from a re-analysis of the deposited data

Results flagged for a closer look

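The comparisons of levels use sense counts, so the counts opposite to Mir486 lie outside the main measurement. They numbered 81 in replicate 1 and 39 in replicate 2, above the 3 counts that a count of 0 allows. GENCODE M21 has Mir3107 and the antisense gene Gm15816 on that strand. Mir144 and Mir451a had 0 counts on the opposite strand in both libraries. No group had the 4 samples that a check for single outlying libraries needs.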

How the results depend on the processing

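The direction of all 3 ratios and their side of 1.5-fold were the same under TMM factors, DESeq2 size factors, all reads as total, either other pseudocount and both-strand counts. Over these, Mir486 ran from 0.59 to 0.76, Mir144 from 0.43 to 0.55 and Mir451a from 0.19 to 0.31 on the log2 scale. At its lowest, under DESeq2 size factors, which left the counts unscaled, Mir486 was barely past 1.5-fold. At a fold of 2, 0 of 3 members and 2 of 288 genes passed. Adding an exact binomial test at an adjusted p of 0.05, which compares reads of 2 libraries and no condition, left 1 member and 17 genes. The count of all genes past 1.5-fold was 70 at a minimum of 1 CPM, 10 at 50 CPM and 139 with no filter beyond 1 count, where more or fewer genes were tested. The red cell share became 0.0525% of all reads, a larger total by construction. Counting both strands moved the log2 ratio of Mir144 over Mir486 to 1.48, since reads of the opposite strand were added to Mir486. In alternatives chosen after seeing the data, the log2 ratio of red cell over leukocyte counts, -1.73 as reported, was 0.91 without Mir342, -2.17 with the Mir142 reads, and -0.80 with both changes, since each adds or removes counts of the leukocyte sum. Leaving out either library gave a red cell share of 0.0959% to 0.126%, and log2 ratios of 1.51 to 1.75 for Mir451a over Mir144. No paired analysis was possible because there is only 1 group. Counting error limited Mir486 most, at 374 counts in the smaller value.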

Other observations

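With 2 libraries, likeness between genes reduces to likeness of a single ratio, and the genes named here carry no sign of shared control. The 3 genes closest to Mir144 in log2 ratio (0.55) were Mir346 at 0.55, Mir222 at 0.54 and Mir490 at 0.54. Those closest to Mir451a (0.31) were Mir203, Mir182 and Mir669e, each at 0.31. Those closest to Mir486 (0.71) were Mir7b at 0.72, and Mir129-2 and Mir294 at 0.73. By mean level, Mir451a stood between Mir210 (801 ± 98.4 CPM) and Mir433 (773 ± 17.7 CPM), and its spread covered both. The next genes by level were Mir467e (843 CPM) and Mir148a (737 CPM) around Mir451a, Mir224 (259 CPM) and Mir27a (239 CPM) around Mir144, and Mirlet7a-1 (87.6 CPM) and Mir539 (80.6 CPM) around Mir486.

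Mir101a gives the only other mature miRNA in the RefSeq table that shares bases 2 to 7 with miR-144-3p, though not base 8. Mir144 stood at a log2 ratio of 0.55, while Mir101a had 123 CPM in replicate 1 and 146 CPM in replicate 2, a log2 ratio of -0.25.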
